A study of Mus musculus with 12 samples.

Results

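The voltage-gated sodium and calcium channel genes of the mouse hippocampus were followed over 4 circadian times. The members were all genes that the arrays name Scn with a number and a or b, or whose names start with Cacna, Cacnb or Cacng. This gave 39 genes with 55 probes, and the probe with the highest mean signal stood for its gene. Of the 39 genes, 35 passed the filter on dim probes and entered the tests, among 24090 genes in all. The study asked which hippocampal genes follow a circadian rhythm when light is absent. RNA from the hippocampus of 12 adult male wild-type mice in constant darkness was measured on 1-colour Agilent arrays, 1 mouse per array and 3 mice per time. The CT18 mice (14, 15 and 16) had been in darkness for 30 h, the CT0 mice (1, 2 and 3) for 36 h, the CT6 mice (5, 6 and 7) for 42 h and the CT12 mice (10, 11 and 12) for 48 h, so that circadian time and hours in darkness cannot be told apart. CT0 is the start of the subjective day and CT12 the start of the subjective night. Strain and exact age are not given in the sources used here. A level is the log2 intensity of a probe minus the 75th percentile of its array. Probes differ in brightness, so levels are compared between mice and never between genes.

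Voltage-gated sodium channels open within a fraction of a millisecond when a neuron is depolarised and carry the rising phase of the action potential, and their small beta subunits adjust gating and anchor the pore-forming alpha subunit. Voltage-gated calcium channels turn depolarisation into calcium entry, which triggers transmitter release at presynaptic terminals, drives dendritic signals and starts gene expression in the nucleus. Their pore is an alpha1 subunit, and alpha2delta and cytoplasmic beta subunits bring it to the membrane, while most neuronal gamma subunits are better known as partners of AMPA-type glutamate receptors. In hippocampal neurons these channels set firing threshold, bursting and the strength of synapses.

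Probes behind several of the results that follow are 60 bases long and are given 5′ to 3′ as the scanner files hold them, with positions on mm9. They are shown because each value below is the signal of such a stretch and not of a whole transcript. The brightest Scn1a probe lies at chr2:66111022-66111081 on the minus strand and the other at chr2:66173498-66173557, also minus. The Cacng8 probe lies at chr7:3415260-3415319, plus strand. For the other probes shown, the first 30 bases are given: Scn4b (chr9:44962045-44962104, plus), Scn11a (chr9:119662887-119662946, minus), Cacna1e (chr1:156240286-156240345, minus), and the brightest (chr17:25511235-25511294, minus) and the other (chr17:25569818-25569877, minus) probe of Cacna1h. Exon, intron and UTR positions of these stretches were not analysed here.
Scn1a, brightest probe: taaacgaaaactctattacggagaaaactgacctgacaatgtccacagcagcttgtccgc
Scn1a, other probe: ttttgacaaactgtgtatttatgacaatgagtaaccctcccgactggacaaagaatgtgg
Cacng8: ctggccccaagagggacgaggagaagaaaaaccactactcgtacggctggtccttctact
Scn4b: ttcctatctaactttataggcaatacagtg
Scn11a: gtcagcaccccaactttcagaagctctgat
Cacna1e: tttctgtcaaattagtgctatgataattga
Cacna1h, brightest probe: caaagctaaggggaggggaggggcaaagca
Cacna1h, other probe: cttcttctgcctcgggcaaaccacgcggcc

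The library labelled CT12 mouse 11 departed from all others, so most tests are given with and without it. Across genes (no independent replicates) its r with each other library was 0.945 to 0.965, whereas the remaining pairs reached at least 0.984. The summed level of 8 cerebellum markers (linear intensity relative to the 75th percentile) was 262 in it and 1.76 to 3.17 in the others, in which Gabra6 and Cbln3, the defining markers of cerebellar granule cells, were not well above background. The sum of 8 forebrain and pyramidal markers was 20.9 in it against 65.0 to 115 elsewhere, with Emx1 not well above background, so the hippocampal label is borne out by these markers in the other 11 libraries and not in this one. The 5 dentate granule markers summed to 0.71 there and to 5.87 to 13.8 elsewhere. In CT12 mouse 10 the 6 thalamus markers summed to 31.4, against 3.86 to 8.04 in the others. Choroid plexus markers summed to 137 to 362 in CT0 mouse 1, CT6 mouse 7, CT12 mice 10 and 11 and CT18 mouse 14, and to 1.92 to 3.06 in the rest. The share of spots well above background was 77.1% for CT0 mouse 3 and 59.3% to 67.1% for the others. In RNA from a whole tissue, fewer cells of a type and less RNA per cell cannot be told apart.

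Most channel genes lay outside the range of the other libraries in CT12 mouse 11, some far above it and others far below. The count was 31 of the 35 tested members (88.6%), with 13 above (37.1%) and 18 below (51.4%). Over all genes the share outside was 55.8%, with 25.4% above and 30.3% below. In each of the other 11 libraries, between 1 and 7 members (2.86% to 20%) lay outside the range of the rest, against 6.18% to 21.6% of all genes. A distance of more than 1 log2, or 2-fold, from the mean of the other 11 was seen for 19 members (54.3%) in CT12 mouse 11, against 15.4% of all genes. A single library has no replicate, so this comparison has no test, and the part of the cerebellar, forebrain and dentate marker levels in it was not tested. Members that lay above the range there included Scn1a, Scn11a, Scn2b, Scn4b, Cacna1a, Cacna1g, Cacna2d2, Cacnb4, Cacng2, Cacng4, Cacng5 and Cacng7. Those below it included Scn3a, Scn4a, Scn8a, Scn3b, Cacna1b, Cacna1c, Cacna1d, Cacna1e, Cacna1h, Cacna2d1, Cacna2d3, Cacnb1, Cacnb2, Cacnb3, Cacng3, Cacng6 and Cacng8. Both sets hold members of each role, from pore-forming to auxiliary subunits. Cacna1s, Cacna1i, Cacna2d4 and Cacng1 lay inside the range. Some members were only just outside it: Scn2b was at 5.24 against at most 5.23 elsewhere, and Cacna1d at -0.67 against at least -0.62.

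**Figure D1:**
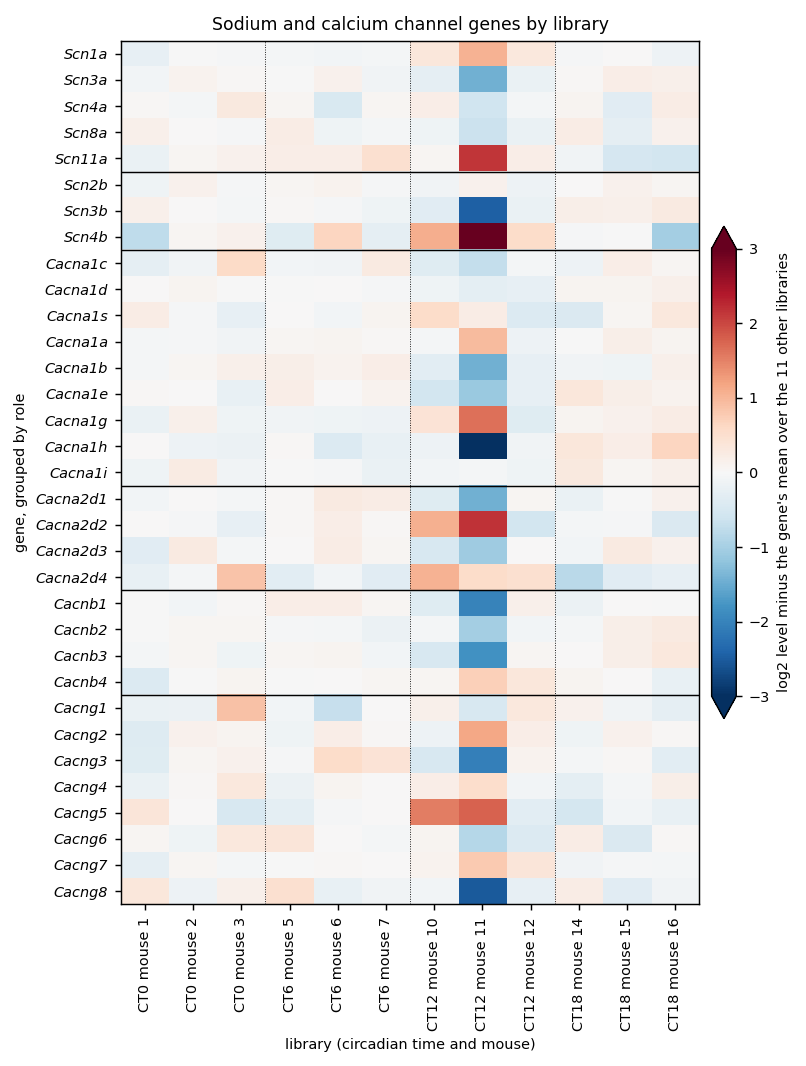
Each square is the log2 level of 1 of 33 tested genes (rows, grouped by role and separated by lines) in 1 of the 12 libraries (columns), minus the mean of that gene over the 11 libraries other than CT12 mouse 11. Red is higher and blue lower. The column of CT12 mouse 11 holds 19 genes that are more than 1 log2 away, where 15.4% of all genes were. Other columns hold at most 2 such genes when each is set against its own 11 others, where 0.594% to 5.1% of all genes were.

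**Figure D2:**
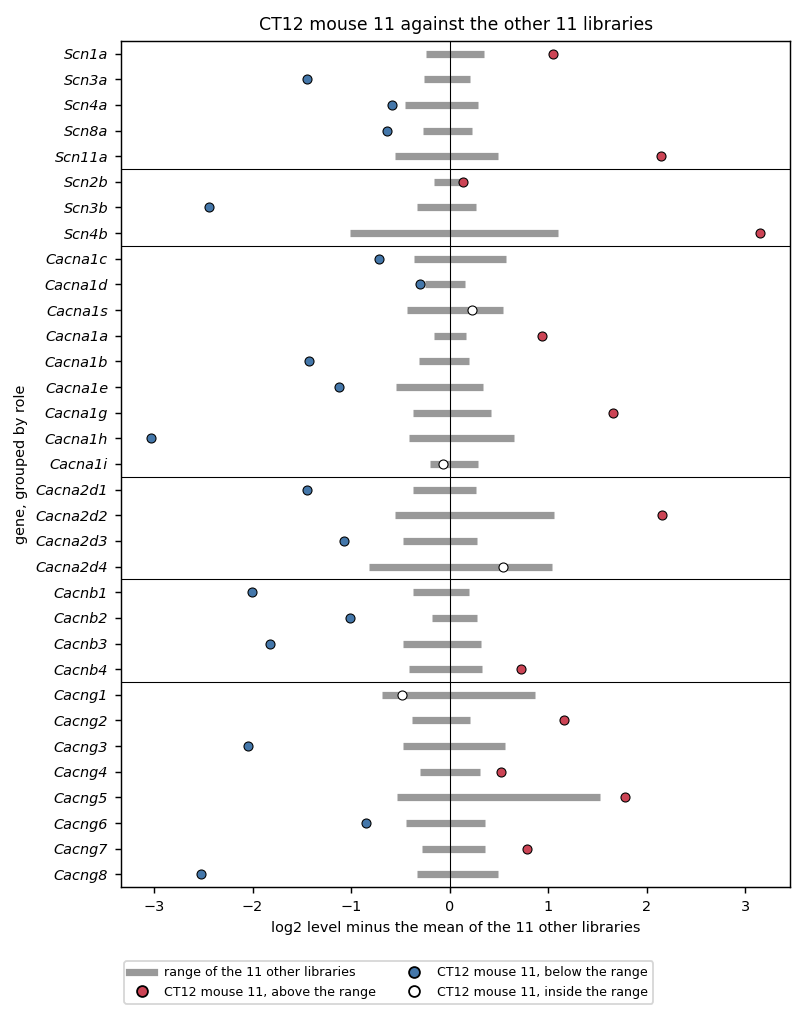
For each of 33 tested genes (rows), the grey bar spans the log2 levels of the 11 other libraries and the circle is CT12 mouse 11, both minus the mean of those 11. Red circles (12 genes) lie above the bar, blue circles (17 genes) below it and open circles (4 genes) inside it.

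Across the 4 circadian times, 0 of the 35 tested members were called at an adjusted p under 0.05 (limma, Benjamini-Hochberg over all genes) by the F test on the 4 means, where 0.166% of all genes were called. The count without CT12 mouse 11 was also 0, with 0.245% of all genes called. At an unadjusted p under 0.05 the F test gave 7 members (20%) with all 12 libraries, against 10.6% of all genes, and 9 (25.7%) without CT12 mouse 11, against 12.3%. The F test for a rhythm of 24 hours called 0 members, with 3 (8.57%) at an unadjusted p under 0.05 and a background of 0.0706% of genes called and 9.72% unadjusted (limma). Without CT12 mouse 11 the rhythm test also called 0, with 4 members (11.4%) unadjusted against 12.3% of genes, and 0.282% of genes called. With the slide as a block, the F test called 0 members and 0.0664% of genes.

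For each of the 6 pairs of times the count of called members was 0, both with all 12 libraries and without CT12 mouse 11 (limma). CT18 minus CT12 held the most members at an unadjusted p under 0.05: 17 of 35 (48.6%), against 16.6% of all genes, with 0.403% of genes called. Without CT12 mouse 11 it held 13 (37.1%), against 13.8%, with 0.494% called. CT12 minus CT6 gave 12 members (34.3%) unadjusted against 11.8% of genes (0.0208% called), and 7 (20%) against 7.91% (0.0249% called) without that mouse. CT12 minus CT0 gave 9 (25.7%) against 11.7% (0.0581% called), and 8 (22.9%) against 8.39% (0.0291% called) without it. The pairs without CT12 held few: CT18 minus CT6 gave 0 against 8.32% (0.133% called) and then 5 (14.3%) against 13.8% (1.25% called), which is near the background. CT18 minus CT0 gave 1 (2.86%) against 3.97% (0% called) and then 4 (11.4%) against 7.05% (0.0208% called). CT6 minus CT0 gave 0 against 2.44% and 5.01% (0% called in both). These pairs share samples and are not independent of each other.

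The smallest adjusted p of any member was 0.0923 with all libraries (Cacna1e, CT18 minus CT12) and 0.0669 without CT12 mouse 11 (Scn11a, CT18 minus CT6, limma). Without CT12 mouse 12, which leaves mice 10 and 11 at CT12, members were called: 5 for CT18 minus CT12, where 5.23% of all genes were called, 2 for CT12 minus CT0 (0.324% of genes), 1 for CT12 minus CT6 (0.291%), and Cacng5 by the F test (0.486%). Mouse 10 had the highest thalamus marker sum (31.4) and mouse 11 the highest cerebellum marker sum (262). The part of these markers in the calls was not tested.

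The spread between mice sets the precision of these differences. Leaving out CT12 mouse 11 lowered the median spread of the members within a time from an SD of 0.35 to 0.18, and that of all genes from 0.22 to 0.17. The median distance of the 95% interval from a member's difference was 0.58 with all libraries for each of the 6 pairs. Without CT12 mouse 11 it was 0.32 for pairs without CT12 and 0.36 for pairs with it. For CT12 minus CT0, 31 of 35 members then had a 95% interval that lay wholly within 1 log2 of 0, and for CT18 minus CT6 also 31. The distance between the highest and the lowest of a member's 4 means had a median of 0.61 with all libraries (all genes 0.30), with 1.95 for Scn4b as the widest. Without CT12 mouse 11 that median was 0.32 (all genes 0.25) and the widest was 1.24 for Cacna2d4. The distance shrank on leaving this library out for 30 of 35 members, against 52% of all genes.

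**Figure D3:**
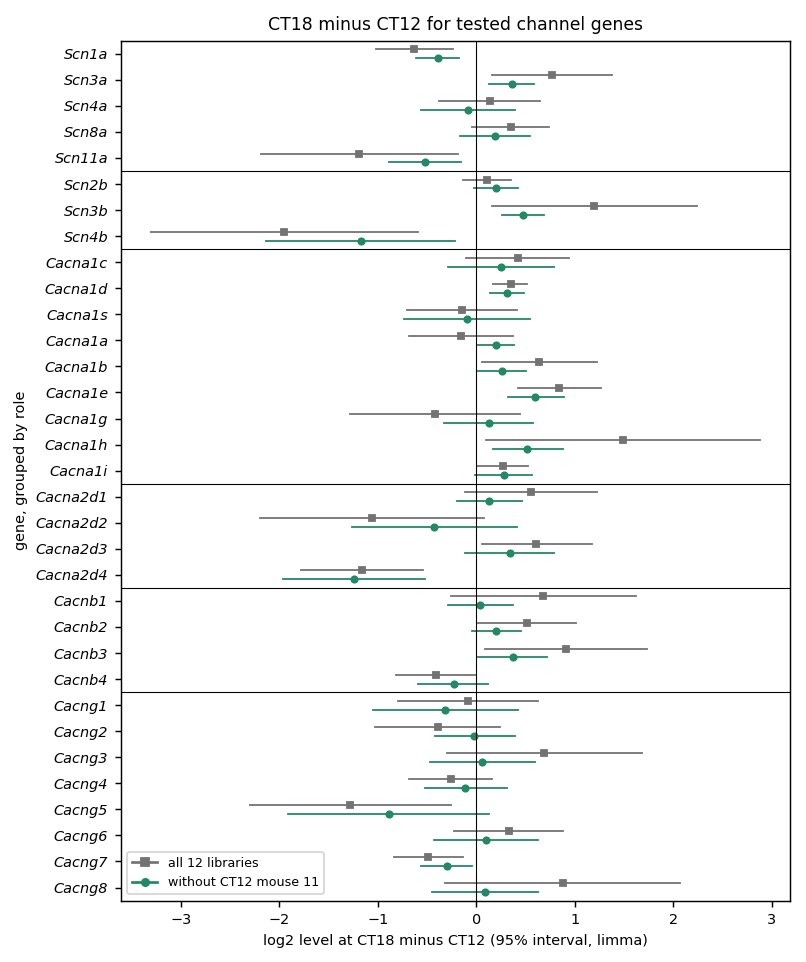
The points are the difference in log2 level between CT18 and CT12 for each of 33 tested genes (rows, grouped by role), with 95% intervals from limma. Grey squares use all 12 libraries and green circles leave out CT12 mouse 11, and 17 grey and 13 green intervals belong to genes with an unadjusted p under 0.05, of which 0 passed the adjusted threshold.

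At CT12 the 3 mice of 7 members lay all above or all below the other 9 mice: Scn1a and Cacng7 above, and Scn3a, Scn3b, Cacna1b, Cacna1d and Cacna1e below. This is 20% of members, where 4.62% of all genes did so. Without CT12 mouse 11 the same 7 members met the criterion, against 6.52% of genes. For CT18 the count was 3 (8.57% of members), namely Scn3b, Cacna1d and Cacna1h, all above, against 3.64% of genes. The same 3 met the criterion without CT12 mouse 11, against 5.02% of genes. For CT0 and CT6 the count was 0, against 0.34% and 1.83% of genes with all libraries, and 0.444% and 2.46% without that mouse. This count was chosen after the values were seen, and 0 of these genes passed the F test. The forebrain marker sum was 65.0, 20.9 and 98.4 in CT12 mice 10, 11 and 12, against 88.2 to 115 at the other times. In CT12 mouse 10, which remains without mouse 11, the thalamus marker sum was 31.4, against 3.86 to 8.04 in the other libraries. The endothelium markers summed to 15.6 to 18.8 at CT12, below the 19.0 to 24.4 of the other times. The microglia markers summed to 6.16 to 10.6 at CT12, below the 11.3 to 14.7 of the other times. The astrocyte sums (46.5 to 49.1 against 44.3 to 52.8) and oligodendrocyte sums (243 to 347 against 184 to 248) overlapped. The part of all these markers in the differences was not tested, with or without CT12 mouse 11.

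Among the sodium channel alpha subunits, Scn1a had the smallest F test p, 0.00875 with all libraries and 0.00536 without CT12 mouse 11 (limma). It encodes a pore that fast-spiking inhibitory neurons depend on. It stood at 3.46, 3.69 and 3.66 in the CT0 mice, at 3.65, 3.62 and 3.65 at CT6, at 4.05, 4.75 and 4.01 at CT12 and at 3.66, 3.72 and 3.54 at CT18. All CT12 mice were higher than every other mouse, and the remaining times overlapped. CT12 minus CT0 was 0.67 ± 0.17 (SE, 3 mice each; limma adjusted p = 0.31), and 0.43 ± 0.09 without CT12 mouse 11 (adjusted p = 0.199). Within slides, the same difference was 0.60, 1.06 and 0.35. The 6 interneuron markers summed to 90.5 and 99.0 in CT12 mice 10 and 12 and to 75.3 to 91.9 at the other times. In mouse 11 they summed to 162. Pvalb was at 3.79, 6.81 and 4.21 in CT12 mice 10, 11 and 12, against 2.96 to 3.68 at the other times. In mouse 11, Sst was at 2.83 against 4.37 to 4.91 in the other libraries, and Vip at -2.67 against -0.32 to 0.65. CT12 mouse 10 held the lowest of those other values for both. Gad2 was at 3.61, 3.26 and 2.83 in CT12 mice 10, 11 and 12, the last the lowest of all libraries. Pvalb alone of the 6 markers lay above the other times in all 3 CT12 mice. The 6 markers' median difference from the mean of the other 11 libraries was 0.21, -0.11 and 0.17 in mice 10, 11 and 12. At the other times it was -0.17 to 0.13. The part of the interneuron markers, Pvalb among them, in the Scn1a difference was not tested. After adjustment the F test p was 0.299, and 0.178 without CT12 mouse 11.

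Scn3a and Scn8a encode brain alpha subunits, the former known best from the developing brain and the latter from the axon initial segment. Scn3a stood at 1.99, 2.18 and 2.11 at CT0, 2.05, 2.21 and 1.97 at CT6, 1.81, 0.62 and 1.88 at CT12, and 2.10, 2.28 and 2.23 at CT18. The CT12 mice were the lowest, mouse 11 by far, and mice 10 and 12 only just below the lowest CT6 mouse. CT18 minus CT12 for Scn3a was 0.77 ± 0.27 (SE; limma adjusted p = 0.222) and 0.36 ± 0.10 without CT12 mouse 11 (adjusted p = 0.159). Scn8a was at 0.94, 0.79 and 0.75 at CT0, 1.01, 0.65 and 0.73 at CT6, 0.65, 0.14 and 0.59 at CT12, and 1.0, 0.51 and 0.92 at CT18. The CT12 mice lay below the CT0 mice, and mice 10 and 12 overlapped CT18. Mice of CT12 and CT0 did not overlap in 10 members (28.6%) and in 12.9% of all genes. Without CT12 mouse 11 these shares were 28.6% and 20%. The F test for Scn8a gave an adjusted p of 0.625, and 0.907 without CT12 mouse 11 (limma). Scn2a1, the array's name for the main alpha subunit of excitatory neurons, falls outside the naming rule, and its levels were added for completeness. It ranged from 3.68 to 4.08 over the other 11 libraries and was 3.80 in CT12 mouse 11, inside that range. Its F test adjusted p was 0.885, and 0.922 without that mouse (limma).

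Scn11a, which is best known from peripheral sensory neurons, had CT6 and CT18 mice that did not overlap, although the difference missed the threshold. Mice of these times did not overlap in 9 members (25.7%) and in 22.8% of all genes, which is near that share. Its levels were -2.25, -2.0 and -1.92 at CT0, -1.85, -1.85 and -1.56 at CT6, -1.99, 0.10 and -1.84 at CT12, and -2.15, -2.56 and -2.60 at CT18. Mouse 11 was by far the highest, and the CT18 mice lay below all CT6 mice. CT18 minus CT6 was -0.68 ± 0.45 (SE; adjusted p = 0.849 by limma) with all libraries and -0.68 ± 0.15 (adjusted p = 0.0669) without CT12 mouse 11. Those 2 fits hold the same 6 mice of CT6 and CT18, and only the pooled spread differs. Within slides the difference was -0.31, -0.70 and -1.04. The dentate granule markers summed to 11.2 to 13.8 at CT18 and 5.87 to 8.83 at CT6, and their part was not tested. Scn4a, the skeletal muscle subunit, had 4 means that spanned 0.23, and 0.18 without CT12 mouse 11. Scn7a, Scn9a and Scn10a were well above background on 0, 1 and 2 of 12 arrays and were not tested.

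The sodium channel beta subunits Scn3b and Scn4b lay far out on opposite sides in CT12 mouse 11. Scn3b was at 3.45, 3.32 and 3.24 at CT0, 3.34, 3.27 and 3.16 at CT6, 2.97, 0.86 and 3.09 at CT12, and 3.48, 3.46 and 3.57 at CT18. The value of mouse 11 was 5.45-fold below the mean of the other 11 libraries, and mice 10 and 12 were still the lowest of the rest. CT18 minus CT12 was 1.2 ± 0.47 (SE; limma adjusted p = 0.246), and 0.47 ± 0.10 without CT12 mouse 11 (adjusted p = 0.0694). The same difference within the slides of mice 10 and 12 was 0.51 and 0.48.

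Scn4b, whose product shapes resurgent sodium current in Purkinje cells, was at 0.69, 1.51 and 1.57 at CT0, 1.08, 2.10 and 1.17 at CT6, 2.55, 4.60 and 1.99 at CT12, and 1.42, 1.44 and 0.44 at CT18. Mouse 11 was 8.86-fold above the mean of the other 11, the largest distance of any member, and mouse 10 was the next highest. CT12 minus CT0 was 1.79 ± 0.61 (SE; adjusted p = 0.381 by limma), and 1.02 ± 0.42 without CT12 mouse 11 (adjusted p = 0.563). Scn2b, a beta subunit that binds the pore covalently, had 4 means that spanned 0.11, with an F test adjusted p of 0.949 (limma). They spanned 0.20 without CT12 mouse 11, with an adjusted p of 0.739.

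**Figure D4:**
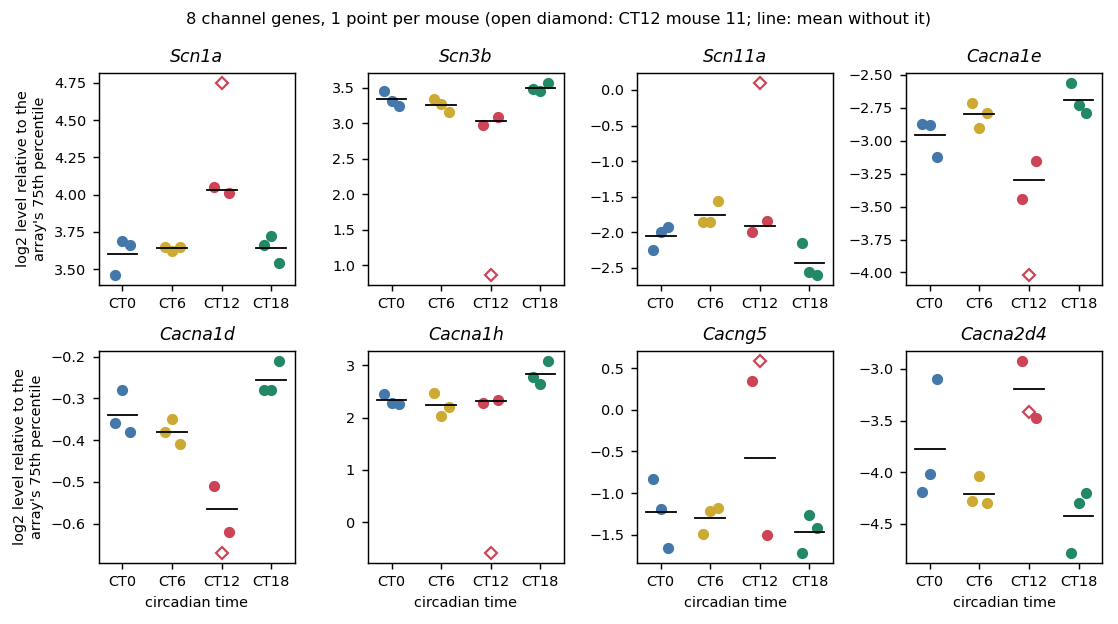
Points are the log2 levels of single mice relative to the 75th percentile of their array, by circadian time, for 8 channel genes, and each panel has its own vertical scale. The open diamond is CT12 mouse 11 and the lines are means without it, and the CT12 mice lie beyond all other mice for Scn1a, Scn3b, Cacna1e and Cacna1d, while CT18 lies above CT6 for Cacna1h and below it for Scn11a.

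Of the L-type calcium channel genes, Cacna1d had the least spread within a time (SD of 0.03 to 0.08), against 0.18 to 0.44 for Cacna1c and 0.08 to 0.48 for Cacna1s. Cacna1d, a pore that opens at low voltages and supports pacemaking, was at -0.36, -0.28 and -0.38 at CT0, -0.38, -0.35 and -0.41 at CT6, -0.51, -0.67 and -0.62 at CT12, and -0.28, -0.28 and -0.21 at CT18. The CT12 mice were the lowest and the CT18 mice the highest, the latter only just above CT0 mouse 2. CT18 minus CT12 was 0.35 ± 0.08 (SE; limma adjusted p = 0.095), and 0.31 ± 0.08 without CT12 mouse 11 (adjusted p = 0.109), with 0.23, 0.40 and 0.41 within slides. Its second probe gave a CT12 minus CT0 of -0.59 with all libraries and of -0.46 without CT12 mouse 11, against -0.26 and -0.23 for the brightest. Cacna1c, the main L-type pore of the forebrain, was at -3.56, -3.41 and -2.73 at CT0, -3.39, -3.40 and -3.04 at CT6, -3.66, -4.02 and -3.37 at CT12, and -3.45, -3.10 and -3.24 at CT18. Its times overlapped, and the F test gave an adjusted p of 0.666, and 0.925 without CT12 mouse 11 (limma). A transcript of the Cacna1c locus that the array names D930026N18Rik had an F test p of 0.00694, adjusted to 0.281 (limma). Without CT12 mouse 11 it was 0.00755, adjusted to 0.207 (limma). This transcript stood at 3.23, 2.67 and 3.20 at CT12, below the 3.30 to 3.91 of the other mice. Its mean was highest at CT18 (3.77 ± 0.16, SD, n = 3). CT12 mice lay beyond all others in 4.62% of all genes. Cacna1s, the skeletal muscle pore, spanned 0.14 over its 4 means and 0.09 without that mouse, and Cacna1f, the retinal pore, was well above background on 1 array.

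Of the presynaptic P/Q, N and R type pores, Cacna1a and Cacna1b went opposite ways in CT12 mouse 11. Cacna1a, the P/Q type pore, stood at 2.46, 2.48 and 2.41 at CT0, 2.57, 2.59 and 2.55 at CT6, 2.44, 3.45 and 2.35 at CT12, and 2.5, 2.68 and 2.60 at CT18. Mouse 11 was the highest, 1.92-fold above the mean of the others, and the CT6 mice lay slightly above the CT0 mice. Mice of CT6 and CT0 did not overlap in 6 members (17.1%) and in 11% of all genes. Cacna1b, the N type pore, stood at -3.23, -3.10 and -3.01 at CT0, -3.0, -3.06 and -2.97 at CT6, -3.48, -4.60 and -3.42 at CT12, and -3.27, -3.29 and -3.01 at CT18. Here the CT12 mice were the lowest, mouse 11 by 2.70-fold against the mean of the other 11. CT12 minus CT6 of Cacna1b without that mouse was -0.44 (95% interval -0.68 to -0.20; limma adjusted p = 0.294).

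Cacna1e, the R type pore, had the smallest F test p of the members with all 12 libraries, 0.00556, which was 0.268 after adjustment (limma). It was 0.00561 (adjusted 0.181) without CT12 mouse 11, behind 0.0049 for Scn3b and 0.00536 for Scn1a. It stood at -2.87, -2.88 and -3.12 at CT0, -2.71, -2.90 and -2.79 at CT6, -3.44, -4.02 and -3.15 at CT12, and -2.56, -2.73 and -2.79 at CT18. The CT12 mice were again the lowest, although mouse 12 was only just below CT0 mouse 3. CT18 minus CT12 was 0.84 ± 0.19 (SE; adjusted p = 0.0923), and 0.60 ± 0.13 without CT12 mouse 11 (adjusted p = 0.0785). Within slides it was 0.88, 1.28 and 0.37.

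The T-type pores, which open near rest and support burst firing, differed from each other in CT12 mouse 11. Cacna1h was at 2.45, 2.28 and 2.26 at CT0, 2.47, 2.03 and 2.21 at CT6, 2.28, -0.59 and 2.34 at CT12, and 2.77, 2.64 and 3.09 at CT18. Mouse 11 was 8.14-fold below the mean of the others, while the CT18 mice were the highest and did not overlap the rest. CT18 minus CT6 was 0.60 ± 0.62 (SE; limma adjusted p = 1) with all libraries and 0.60 ± 0.14 (adjusted p = 0.0876) without CT12 mouse 11. Within slides it was 0.29, 0.61 and 0.88, and the second Cacna1h probe gave 0.12 for the same difference. The dentate marker sums given beside Scn11a apply to these mice as well, and their part was not tested. Cacna1g, at 1.59, 1.95 and 1.67 at CT0, 1.69, 1.66 and 1.63 at CT6, 2.21, 3.45 and 1.42 at CT12, and 1.88, 1.92 and 2.02 at CT18, was highest in mice 11 and 10. Its F test adjusted p was 0.727, and 0.865 without mouse 11 (limma). The thalamus marker sum was highest in mouse 10 and the cerebellum sum in mouse 11. Their part in the levels of Cacna1g, and of Scn4b and Cacna2d2, which were also highest in mice 11 and 10, was not tested. For Cacna1i the brightest probe put mouse 11 at -0.08 from the mean of the other libraries, inside their range, and the second probe at -0.48, below it.

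The alpha2delta subunits, which traffic the pore and bind gabapentin in the case of Cacna2d1 and Cacna2d2, split in CT12 mouse 11. Cacna2d2 stood at 2.49, 2.44 and 2.23 at CT0, 2.5, 2.66 and 2.51 at CT6, 3.53, 4.63 and 1.91 at CT12, and 2.41, 2.44 and 2.04 at CT18. CT12 thus held both the 2 highest mice, 11 and 10, and the lowest, 12. Cacna2d1 and Cacna2d3 were 2.72-fold and 2.10-fold below the mean of the others in mouse 11 and were lowest after it in mouse 10. Cacna2d4 was at -4.19, -4.02 and -3.10 at CT0, -4.28, -4.04 and -4.30 at CT6, -2.92, -3.42 and -3.47 at CT12, and -4.78, -4.30 and -4.20 at CT18. The CT12 mice and CT0 mouse 3 were high and the rest low. CT18 minus CT12 was -1.16 ± 0.28 (SE; limma adjusted p = 0.106), and -1.24 ± 0.32 without CT12 mouse 11 (adjusted p = 0.123).

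The cytoplasmic beta subunits gave no adjusted F test p below 0.535 (limma), or below 0.632 without CT12 mouse 11. In mouse 11, Cacnb1, Cacnb2 and Cacnb3 were 4.03-fold, 2.02-fold and 3.53-fold below the mean of the other libraries and Cacnb4 was 1.65-fold above it. Cacnb3 was also lowest in mouse 10 among the others, at 2.65 against 3.0 or more. Without CT12 mouse 11 the 4 means of these genes spanned 0.25, 0.23, 0.37 and 0.31.

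Among the gamma subunits, Cacng8, a partner of AMPA receptors that is enriched in the hippocampus, fell furthest out in CT12 mouse 11. It stood at -0.69, -1.19 and -0.88 at CT0, -0.54, -1.26 and -1.13 at CT6, -1.11, -3.55 and -1.27 at CT12, and -0.81, -1.36 and -1.13 at CT18. Mouse 11 was 5.72-fold below the mean of the other 11, which overlapped across the 4 times. Without it, CT12 minus CT0 was -0.27. Cacng3 was 4.16-fold below and Cacng2, the cerebellar stargazin gene, 2.23-fold above the other libraries in that mouse.

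Cacng7 and Cacng5 had their highest means at CT12. Cacng7 was at 3.24, 3.59 and 3.47 at CT0, 3.51, 3.56 and 3.52 at CT6, 3.63, 4.31 and 3.88 at CT12, and 3.41, 3.48 and 3.46 at CT18. All CT12 mice exceeded all others, mouse 10 only just. CT12 minus CT0 was 0.51 ± 0.16 (SE; limma adjusted p = 0.364), and 0.32 ± 0.12 without CT12 mouse 11 (adjusted p = 0.49). Cacng5 was at -0.83, -1.19 and -1.66 at CT0, -1.49, -1.22 and -1.18 at CT6, 0.34, 0.59 and -1.50 at CT12, and -1.72, -1.27 and -1.42 at CT18. Mice 10 and 11 were high and mouse 12 lay among the other times. This is the gene that the F test called without mouse 12 (adjusted p = 0.036, limma), and it was not called with it (0.51) or without mouse 11 (0.774). The thalamus marker sum was highest in mouse 10, the cerebellum sum in mouse 11, and their part in the Cacng5 level was not tested. The other gamma genes, Cacng1, Cacng4 and Cacng6, spanned 0.42, 0.26 and 0.49 over their 4 means, and 0.49, 0.11 and 0.26 without CT12 mouse 11.

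Different probes of a gene showed the same direction in CT12 mouse 11. Of the 35 tested members, 12 had more than 1 kept probe, and in 12 of 12 the probes shared the sign of their distance from the mean of the other libraries. The sizes could differ: the Cacna1h probes were at -3.02 and -1.56, and the Scn1a probes at 1.05 and 0.71. A shared sign did not always mean a place outside the range of the other libraries. Another Scn8a probe put mouse 11 at 0.23, inside the 0.18 to 0.63 of the others. The second Cacng7 probe put it at -1.70, inside -2.27 to -1.69. For the differences between times the probes shared a sign in 10 of 12 genes for CT12 minus CT0 without CT12 mouse 11 and in 9 of 12 for CT18 minus CT6. The Scn1a probes gave 0.43 and 0.32 for CT12 minus CT0 without CT12 mouse 11. The Cacna1d probes gave 0.12 and -0.13 for CT18 minus CT6.

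**Figure D5:**
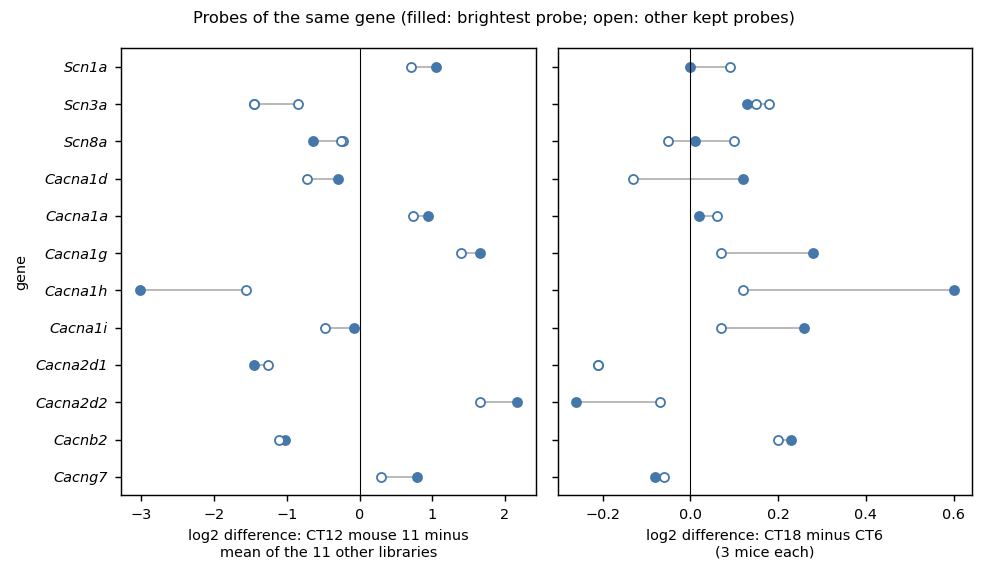
Points are the log2 differences given by each kept probe of the 12 genes with more than 1, on the left for CT12 mouse 11 minus the mean of the other 11 libraries and on the right for CT18 minus CT6 (3 mice each). Filled points are the brightest probes, which stand for the gene, and on the left all probes of a gene lie on 1 side of 0 while on the right 9 of 12 genes do so.

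Among genes that work with these channels, Ryr2, Ank3, Slc8a3 and Stim2 had the smallest F test p with all 12 libraries, and Slc8a3, Ryr1, Ryr2 and Atp2b4 without CT12 mouse 11, and none passed. A list of 62 genes held channel partners, the sodium leak channel, intracellular calcium release, store-operated entry, pumps, exchangers and other sodium channels. Of these 60 were tested and 0 were called in either direction by any of the 8 tests, with or without CT12 mouse 11 (limma). The F test gave 9 of 60 at an unadjusted p under 0.05 with all libraries, against 10.6% of all genes, and 11 of 60 without CT12 mouse 11, against 12.3%. With all libraries the smallest adjusted F test p values were 0.198 for Ryr2, the ryanodine receptor of neurons and heart, 0.325 for Ank3, which anchors sodium channels at the axon initial segment, 0.327 for Slc8a3, a sodium-calcium exchanger, and 0.373 for Stim2, a calcium sensor of the endoplasmic reticulum. The smallest without CT12 mouse 11 were 0.106 for Slc8a3, 0.137 for Ryr1 and Ryr2 and 0.171 for Atp2b4, a calcium pump of the plasma membrane (limma). The 4 means of Ryr2 were 2.26 ± 0.08 at CT0, 2.14 ± 0.07 at CT6, 1.74 ± 0.27 at CT12 and 2.42 ± 0.11 at CT18 (SD, n = 3). Ank3 had 2.37 ± 0.09, 2.34 ± 0.05, 2.18 ± 0.03 and 2.53 ± 0.04 in the same order. Slc8a3 had 4.36 ± 0.06, 4.38 ± 0.16, 4.96 ± 0.31 and 4.67 ± 0.18. At CT12, mice 10, 11 and 12 stood at 1.79, 1.45 and 1.98 for Ryr2, at 2.21, 2.19 and 2.15 for Ank3 and at 4.98, 4.64 and 5.27 for Slc8a3. The CT12 mean was thus the lowest of the 4 for Ryr2 and Ank3 and the highest for Slc8a3.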

How the data were processed

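Hippocampal RNA of 12 mice was measured on 1-colour Agilent arrays. Per the file headers, the authors used Agilent Feature Extraction 10.7.3.1. Its processed signal, an intensity with background subtracted, was deposited without scaling between arrays. The flags of each spot (other, 0 or 1) are also deposited columns of these files. The deposited value table holds log2 values (column medians 5.369 to 5.370; r of at least 0.990 with the array each column is named for). The step that made it and its centring are not given in the sources used here, and it served as an alternative.

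A level was the log2 of that signal less the 75th percentile of all non-control probes on its array. Outlier spots were left out, and spots of a probe were averaged. A probe was kept where all 3 arrays of at least 1 time were well above background (33965 of 55681), and the brightest stood for its gene (24090 genes). R 4.3.3 with limma 3.58.1 tested the 4 means (F test), a 24 hour cosine and sine (F test) and 6 pairs of times, each adjusted by Benjamini-Hochberg over all genes (threshold 0.05). In data simulated for the 4 times with 24090 genes and 3 mice each, the F test recovered 14%, 58%, 78% and 80% of 1.5-, 2-, 3- and 4-fold changes. Only CT12 was shifted, in 50 genes per fold drawn from all genes. The noise was normal, with each gene's spread within times over all 12 libraries. The members had a median SD of 0.35 there, against 0.22 for all genes. These rates therefore do not give the recovery for the members, or for the fits without CT12 mouse 11.

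The arrays lay on 3 slides with 1 array per time on each, and each time kept its array position, so position and time cannot be told apart. Of 59305 non-control spots, 59.3% to 77.1% were well above background and 0 were saturated. The local background was 100 for CT0 mouse 1, which the headers mark as to be evaluated, and 25 to 37 for the others. The number of arrays limits the precision. Alternatives were quantile and median scaling, normexp (offset 50), the deposited table, no filter, a filter on all 12 arrays, the mean of kept probes, slide as a block and leaving out each library.

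The members and lists were chosen with earlier results of these data known. Genes given mouse by mouse were those with the smallest F test p (8 with all libraries, 6 without CT12 mouse 11), the 6 furthest out in CT12 mouse 11, and the best known hippocampal members. Cacng5 was added after its values were seen. Results of 2 tested members, which enter the counts and are not drawn, are not reported here by name.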

Additional observations from a re-analysis of the deposited data

How the results depend on the processing

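The count of 0 called members held for each of the 8 tests under quantile and median scaling, normexp, the deposited table, both other filters, the mean of kept probes, the slide as a block and the removal of any library but CT12 mouse 12. Leaving out single libraries gave counts of 0 to 1 for the F test, 0 to 2 for CT12 minus CT0, 0 to 1 for CT12 minus CT6 and 0 to 5 for CT18 minus CT12, the upper ends all without CT12 mouse 12, where 0.486%, 0.324%, 0.291% and 5.23% of all genes were called. These calls were Cacng5 (F test; CT12 minus CT0, adjusted p = 0.0311; CT12 minus CT6, 0.0248), Cacna2d2 (CT12 minus CT0, 0.0497), and Cacng5, Cacna2d2, Cacna1e, Scn1a and Cacnb3 (CT18 minus CT12, 0.0106 to 0.048, limma). Mouse 11 lay outside the range of the others for 28 to 32 members under all alternatives, and 1 member, Cacna1i, changed the sign of its distance. Median scaling moved the median difference of all genes to 0.19 for CT12 minus CT0, 0.18 for CT6 minus CT0 and 0.26 for CT18 minus CT0, from -0.02, 0 and 0. The median difference of the members became 0.05 for CT12 minus CT0 (from -0.16), 0.10 for CT18 minus CT6 (from 0), 0.20 for CT6 minus CT0 (from 0.03), -0.01 for CT12 minus CT6 (from -0.05) and 0.28 for CT18 minus CT0 (from 0.02). Relative to all genes it stayed at -0.14, 0.02, 0.03, -0.03 and 0.02. With normexp it was -0.02 for CT12 minus CT6, -0.10 for CT12 minus CT0 and 0.07 for CT18 minus CT12 (from 0.14). Leaving out single libraries, the members' median ranged from -0.28 to -0.06 for CT12 minus CT0, from -0.20 to 0.02 for CT12 minus CT6, from 0.09 to 0.30 for CT18 minus CT12 and from -0.04 to 0.07 for CT18 minus CT0. The cause was not tested. The mouse numbers differ between the times, so samples were paired by slide only, as the slide block above.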
